A study of Mus musculus with 20 samples.

Results

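The transcripts described here are 3 ligands of the bone morphogenetic protein (BMP) family (Bmp2, Bmp4 and Bmp7), the 4 Id genes (Id1, Id2, Id3 and Id4) and Smad6, an inhibitory SMAD. They were chosen by symbol, and all 8 had a row among the 23361 entries of the deposited gene tables. Polyadenylated RNA was sequenced while mouse embryonic stem cells were turned into epiblast stem cells, in 2 lines, PGK (female) and E14 (male). The starting cells (day 0) grew in 2i, a medium that holds cells in the naive pluripotent state, and all later cells grew in N2B27 with activin A and Fgf2 on fibronectin, without a BMP among the additives the labels name. Cells of each line were taken on days 0, 4 and 10, then on a day from 19 to 23 and on another from 27 to 30, and this was done in a differentiation named diff2 and again in one named diff3. That gives 20 libraries in 10 groups of 2, and sex cannot be told apart from line, since each sex is 1 line. The labels pair the libraries by experiment but name no separate cultures beyond that, so p-values measure only the spread between these libraries.

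BMP ligands are secreted dimers that bring together type I and type II receptor kinases on the receiving cell, which phosphorylate SMAD1, SMAD5 and SMAD9. These SMADs join SMAD4 and switch on a small set of direct targets, among which the Id genes and Smad6 are the best known. Id proteins are helix-loop-helix proteins without a DNA-binding region that hold E proteins away from DNA, and SMAD6 feeds back on the receptors and on SMAD signalling. In mouse embryonic stem cells grown with serum or BMP4, BMP and Id genes are known for supporting self-renewal, and in the embryo BMP4 from extraembryonic ectoderm and BMP2 from visceral endoderm act on the epiblast. RNA levels do not show whether a receptor or a SMAD was active.

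Levels are given on the counts-per-million scale (CPM), a gene's raw count scaled to the total of its library, and every mean ± SD has n = 2. Depth ran from 2020254 to 26936415 counts, and 18 of the libraries held 11847559 or more. The 2 shallow libraries are E14 diff3 at day 0 (3376500 counts) and at day 4 (2020254 counts), where 3 counts equal 0.888 and 1.48 CPM. The E14 diff3 library of day 0 also stood apart in its content. Of 8226 genes at 10 CPM or more in the other 3 libraries of day 0, it had no count for 239, against at most 5 genes by the same measure in every other library, and its Pearson r with its replicate across genes was 0.912, against 0.964 to 0.992 in the other groups. The E14 changes from day 0 that are given for the 8 genes, and the Id2 line difference at day 0, are also given without it. For diff3 the labels call the day 0 cells 2i in the title but give the cell type of the later stages. The marker levels follow the title and day: 6 naive markers summed to 3119 to 4983 CPM at day 0 and 15.9 to 194.1 CPM later, and 6 primed markers to 39.5 to 105.8 CPM at day 0 and 941.6 to 2755 CPM later.

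Bmp2 and Id1 separated the early from the late libraries without overlap. In all 12 libraries from day 10 on, Bmp2 measured 11.4 to 146.8 CPM, against 0 to 4.29 CPM in the 8 libraries of days 0 and 4, and Id1 measured 23.75 to 170.2 CPM against 0.592 to 9.90 CPM. This was so for 1.68% of all 19506 genes with a count, and 0.41% were lower in every late library. None of the other 6 genes separated the stages in this way. Id3 came near, with 18.4 CPM or more in every late library, but a day 0 library of E14 held 37.6 CPM.

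**Figure D1:**
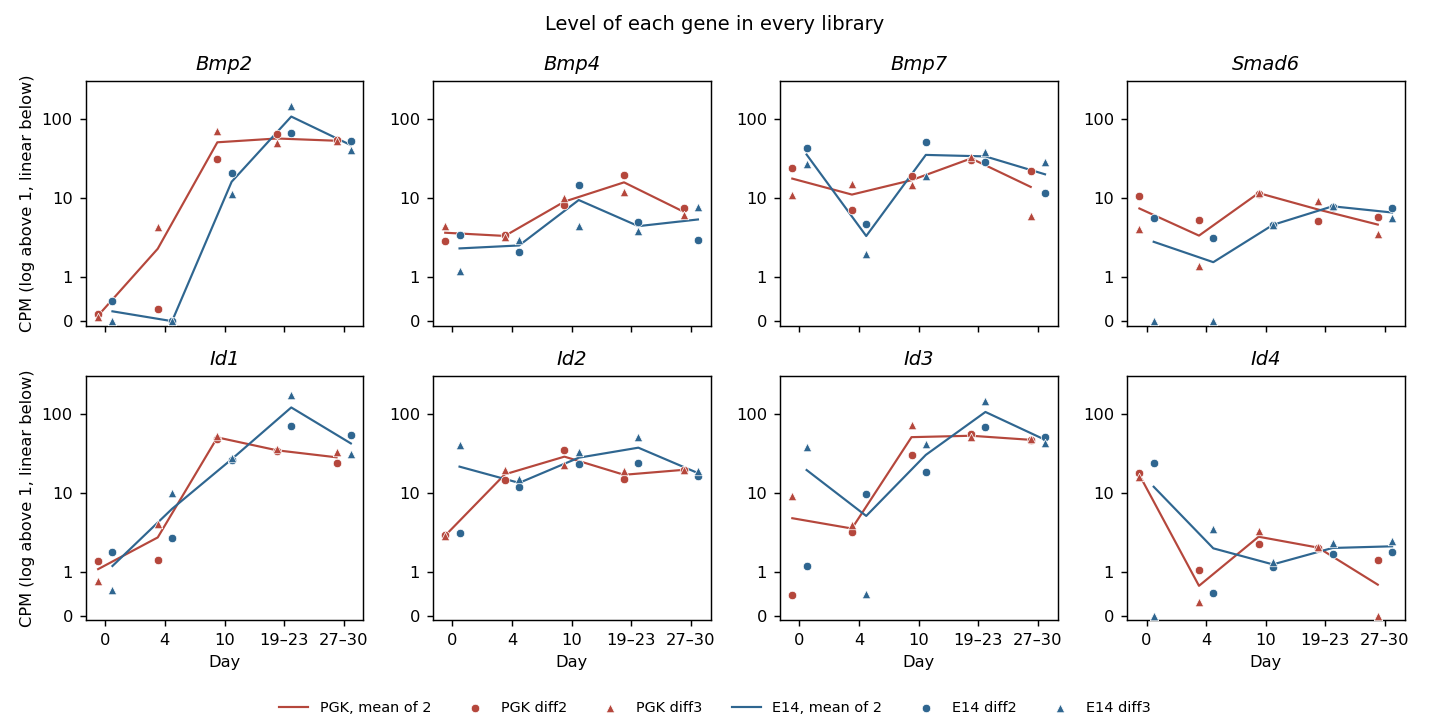
Each panel shows 1 gene, with the day of differentiation on the x axis and CPM on the y axis (log scale above 1, linear below), 1 point per library and lines through the mean of the 2 libraries of each group. Bmp2 and Id1 sit at or below 9.90 CPM at days 0 and 4 and at or above 11.4 CPM from day 10 on, while Id4 is highest at day 0 in both PGK experiments and in E14 diff2.

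Bmp2, the ligand that visceral endoderm makes in the embryo, lies on chromosome 2 (GRCm38, chr2:133552159-133562885, GENCODE M21). It was almost silent in naive cells. In PGK it measured 0.162 CPM (diff2) and 0.0935 CPM (diff3) at day 0, which is 2 reads in each library. At day 4 it measured 0.281 and 4.29 CPM, at day 10 31.4 and 69.6 CPM, at days 19 to 23 63.5 and 49.3 CPM, and at days 27 to 30 53.4 and 52.2 CPM. The 2 experiments therefore parted at day 4, where diff3 already held 94 reads and diff2 held 4.

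In E14, Bmp2 measured 0.448 CPM in diff2 and had no reads in diff3 at day 0, and had no reads in either library of day 4, where 3 counts equal 0.221 CPM in diff2 and 1.48 CPM in diff3. It measured 20.7 and 11.4 CPM at day 10, 66.7 and 146.8 CPM at days 19 to 23, and 52.1 and 41.0 CPM at days 27 to 30. The order of the stage means was the same in both lines for the 3 late stages (days 19 to 23, then days 27 to 30, then day 10), but in PGK the libraries of these 3 stages overlapped with their neighbours in that order and in E14 they did not. Each group holds 2 libraries, and no step between successive late stages was called in the main edgeR fit.

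With edgeR's quasi-likelihood test and Benjamini-Hochberg adjustment over all genes tested, Bmp2 rose in PGK from day 0 to day 4 (log2 fold change 4.18, SE 1.17, adjusted p = 0.0373) and from day 4 to day 10 (4.38, SE 0.85, adjusted p = 0.037). The first step leans on 1 library: without PGK diff3 at day 4 it was 1.13 (adjusted p = 0.589). The second measured 3.49 to 7.45 whichever of the 4 libraries was left out, and lost its call without PGK diff3 at day 10 (3.68, adjusted p = 0.187). The first was also lost without either day 0 library (0.143 and 0.199), without the low-count filter (0.147) and with limma on the deposited log2 values (0.84, adjusted p = 0.272), and the second without the filter (0.175). Over 11 alternatives the adjusted p ran from 0.00073 to 0.589 for the first and from 1.97e-06 to 0.187 for the second. In E14 the step from day 4 to day 10 was at least 83.5-fold higher, with 3 counts over both day 4 libraries as the floor (adjusted p = 0.0239, edgeR). It lost its call without either day 4 library (adjusted p = 0.476 and 0.109) or without diff2 at day 10 (0.0623), in a range of 7.76e-06 to 0.476.

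Across the whole course the change of Bmp2 was the largest of the 8 genes. Days 27 to 30 exceeded day 0 by 8.63 on the log2 scale in PGK (SE 1.16, edgeR adjusted p = 0.000594) and by 7.11 in E14 (SE 0.89, adjusted p = 0.00118). Both calls held under every alternative run, 11 in PGK and 12 in E14, and without the diff3 library of day 0 the E14 value was 6.63 (adjusted p = 0.00168). The day 0 level behind them is 4 reads in PGK and 6 in E14, so the fold is less precise than its direction.

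Bmp4, the ligand best known from serum-free culture of naive cells, lies on chromosome 14 (chr14:46383520-46390669, minus strand). An exon of the gene Gm15217 overlaps it on the other strand, and the use of strand in counting is not given in the sources used here, so its values may hold reads of both. It was a low transcript at every stage. In PGK it measured 2.84 and 4.44 CPM at day 0, 3.44 and 3.20 at day 4, 8.10 and 9.90 at day 10, 19.6 and 12.0 at days 19 to 23, and 7.37 and 6.04 at days 27 to 30. In E14 it measured 3.43 and 1.19 CPM at day 0, 2.06 and 2.97 at day 4, 14.5 and 4.38 at day 10, 4.94 and 3.88 at days 19 to 23, and 2.93 and 7.78 at days 27 to 30. All 6 late PGK libraries lay above all 4 early ones, while in E14 the early and late libraries overlapped. How many of all genes separate in this way within a line was not computed, so the PGK pattern is a description only.

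Bmp4 was not called in any of the 17 comparisons. The difference of days 27 to 30 from day 0 was 0.79 in PGK (SE 0.51, edgeR adjusted p = 0.279) and 1.12 in E14 (SE 1.03, adjusted p = 0.501), both on the log2 scale. The step from day 4 to day 10 was 1.42 in PGK (SE 0.52, adjusted p = 0.277) and 1.90 in E14 (SE 1.07, adjusted p = 0.698). Without the diff3 library of day 0 the late E14 difference was 0.58 (adjusted p = 0.72). Under the alternatives none of these passed 0.05.

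Bmp7, the third ligand, is also on chromosome 2 (chr2:172868012-172940321, minus strand). Unlike Bmp2 it was already present in naive cells, at 24.1 and 11.03 CPM in PGK and 43.4 and 27.3 CPM in E14. At day 4 it measured 7.15 and 14.9 CPM in PGK and 4.64 and 1.98 CPM in E14, the last of these from 4 reads. By day 10 it stood at 19.2 and 14.4 CPM in PGK and 51.3 and 18.7 CPM in E14. At days 19 to 23 the 4 libraries measured 30.4, 32.8, 28.9 and 38.2 CPM (PGK diff2 and diff3, then E14 diff2 and diff3), and at days 27 to 30 they measured 21.7, 5.94, 11.5 and 28.3 CPM.

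In E14 the low level of day 4 was called: Bmp7 fell by 3.30 on the log2 scale against day 0 (SE 0.75, edgeR adjusted p = 0.0215). Without the diff3 library of day 0 it was -3.58 (adjusted p = 0.0111). The call was lost without either day 4 library (adjusted p = 0.073 without diff2 and 0.154 without diff3) and without both shallow libraries (0.0787), in a range of 8.96e-05 to 0.154 over 12 alternatives. The return by day 10 measured 3.27 (SE 0.75, adjusted p = 0.14) and was not called, but it passed without the low-count filter (0.0248), with DESeq2 (0.000673) and in a fit of all 20 libraries (0.0458), in a range of 0.000673 to 0.613. In PGK the day 4 difference was -0.72 (SE 0.62, adjusted p = 0.486), with day 0 and day 4 libraries overlapping. The direct test of the difference between the lines at day 4 gave 2.59 (SE 0.99, adjusted p = 0.521), or 2.88 (adjusted p = 0.61) without E14 diff3 at day 0, so a line difference at that step was not shown.

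Id1, on chromosome 2 (chr2:152736251-152737410), is the Id gene most often read as a sign of BMP signalling. In PGK it measured 1.38 and 0.795 CPM at day 0, 1.40 and 4.06 at day 4, 47.9 and 52.3 at day 10, 33.3 and 35.6 at days 19 to 23, and 23.75 and 32.4 at days 27 to 30. In E14 it measured 1.79 and 0.592 CPM at day 0, 2.65 and 9.90 at day 4, 25.9 and 27.3 at day 10, 69.2 and 170.2 at days 19 to 23, and 53.3 and 30.8 at days 27 to 30. In each line, no neighbours in the order of its 5 stage means overlapped. The highest mean was that of day 10 in PGK and of days 19 to 23 in E14, where the diff3 library held more Id1 than any other of the 20.

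At day 4 Id1 was not called against day 0 in PGK (1.32, SE 0.52, edgeR adjusted p = 0.123) or in E14 (2.08, SE 0.81, adjusted p = 0.139). It passed in PGK without diff2 at day 4 (1.93, adjusted p = 0.0217, range 0.0217 to 0.768) and in E14 with DESeq2 (0.0425, range 0.0425 to 0.769), where the difference was 1.55 (adjusted p = 0.327) without the diff3 library of day 0. From day 4 to day 10 Id1 rose by 4.14 in PGK (SE 0.53, edgeR adjusted p = 0.00758), and this held under all 11 alternatives. In E14 the same step was 2.22 (SE 0.74, adjusted p = 0.343) and was not called. Against day 0, days 27 to 30 were higher by 4.64 in PGK (SE 0.56, adjusted p = 0.000302) and by 4.94 in E14 (SE 0.83, adjusted p = 0.00419), each under every alternative run, with 4.5 in E14 (adjusted p = 0.01) without the diff3 library of day 0. The difference between these 2 late changes was -0.25 (SE 0.97, adjusted p = 1), and 0.15 (adjusted p = 1) without that library.

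Id3, on chromosome 4 (chr4:136143497-136145755), reached levels like those of Id1 but varied more at day 0. In PGK it measured 0.487 and 9.07 CPM at day 0, 3.16 and 3.93 at day 4, 29.9 and 71.1 at day 10, 54.9 and 50.3 at days 19 to 23, and 46.1 and 47.3 at days 27 to 30. In E14 it measured 1.19 and 37.6 CPM at day 0, 9.72 and 0.495 at day 4, 18.4 and 41.9 at day 10, 67.0 and 143 at days 19 to 23, and 51.3 and 42.2 at days 27 to 30. The 37.6 CPM came from the library that stood apart, and the 0.495 CPM from 1 read in the other shallow library.

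Id3 rose in PGK from day 0 to days 27 to 30 by 3.17 (SE 0.88, edgeR adjusted p = 0.0258), a call kept in 7 of 11 alternatives. Its size rested on the day 0 libraries, with 2.28 without diff2 (adjusted p = 0.0129) and 6.49 without diff3 (adjusted p = 0.000401). It was lost without the low-count filter (adjusted p = 0.132), in the fit of 20 libraries (0.0738) and without either library of days 27 to 30 (0.0665 and 0.0844). The PGK step from day 4 to day 10 measured 3.81 (SE 0.91, adjusted p = 0.0796) and missed the threshold. It passed with a term for a library code carried by 6 diff2 libraries (adjusted p = 0.0203), with DESeq2 (0.000185) and with limma on the deposited log2 values (0.0383), in a range of 0.000185 to 0.398. In E14 the late difference from day 0 was 1.36 (SE 1.2, adjusted p = 0.484) with all libraries, 0.37 (adjusted p = 0.763) without diff2 at day 0 and 5.24 (adjusted p = 0.0168) without diff3 at day 0.

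Id2 lies on chromosome 12 (chr12:25093799-25097140, minus strand) and was called in PGK already at day 4. In PGK it measured 2.92 and 2.85 CPM at day 0 and 14.7 and 19.5 CPM at day 4, followed by 34.8 and 22.5 CPM at day 10, 15.2 and 18.6 CPM at days 19 to 23, and 19.4 and 19.7 CPM at days 27 to 30. In E14 diff2 it measured 3.13 CPM at day 0 and 11.9, 22.9, 23.5 and 16.5 CPM at the 4 stages that followed. In E14 diff3 it began at 39.7 CPM, in the library that stood apart, and then measured 14.9, 32.7, 50.9 and 18.97 CPM.

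Id2 rose in PGK at day 4 by 2.50 on the log2 scale (SE 0.39, edgeR adjusted p = 0.00215), and days 27 to 30 stayed above day 0 by 2.68 (SE 0.39, adjusted p = 0.000965). Both calls held under all 11 alternatives. In E14 the day 4 difference of Id2 was -0.59 (SE 0.91, edgeR adjusted p = 0.737), and 2.05 without diff3 at day 0. That of Id3 in E14 was -1.61 (SE 1.24, adjusted p = 0.46), and 2.34 without diff3 at day 0. At day 4, then, Id2 was the member with the smallest adjusted p in PGK, while Id1 and Id3 (-0.53, SE 0.85, adjusted p = 0.738) were not called. Without PGK diff3 at day 0, the Id3 difference turned to 2.83 (adjusted p = 0.024, range 0.024 to 1 over 11 alternatives).

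Id4, on chromosome 13 (chr13:48261228-48266026), went the other way. It measured 17.9 and 15.7 CPM in PGK at day 0 and 1.05 and 0.320 CPM at day 4, and from day 10 on the 6 PGK libraries measured 2.28, 3.30, 1.98, 2.08, 1.42 and 0 CPM. In E14 diff2 it measured 23.9 CPM at day 0 and between 0.515 and 1.78 CPM afterwards. The E14 diff3 library of day 0 had no Id4 read, which at its depth allows up to 0.888 CPM, and the later libraries of diff3 measured 3.47, 1.33, 2.35 and 2.44 CPM. In the PGK library without a read, 3 counts equal 0.142 CPM. Exons of A330033J07Rik and Gm49291 overlap Id4 on the other strand.

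Id4 fell by 4.70 in PGK at day 4 (SE 1.36, edgeR adjusted p = 0.0428) and by 4.62 at days 27 to 30 against day 0 (SE 1.34, adjusted p = 0.0301). These calls sit close to the threshold. The day 4 call was lost in the fit of 20 libraries and without any one of the 4 PGK libraries of days 0 and 4, with an adjusted p from 0.000266 to 0.208 over the alternatives, while the difference stayed between -5.70 and -4.04 when 1 library was left out. The late call was lost in the fit of 20 libraries and without either day 0 library, in a range of 0.000188 to 0.0731, at -4.53 and -4.69. It was -3.64 without diff3 of days 27 to 30, and without diff2 of those days the library left has no Id4 read, so no fold is given. In E14 the differences were -2.80 at day 4 (SE 1.76, adjusted p = 0.356) and -2.58 at days 27 to 30 (SE 1.66, adjusted p = 0.327). Without the diff3 library of day 0 the first was -3.92 (adjusted p = 0.0398, range 0.0191 to 0.899 over 12 alternatives) and Id4 was called. Without the diff2 library of day 0, the day 0 library left has no Id4 read, and both E14 differences turned to higher than day 0 without passing the threshold (adjusted p = 0.0966 and 0.0726). The E14 direction of Id4 therefore rests on diff2 at day 0.

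Since Id2 and Id4 moved in opposite directions in PGK, the stretches just upstream of both are shown, taken from RefSeq on GRCm38.p6 and written 5′ to 3′ along the gene's strand. Of the 8 genes, 5 matched a window of 250 bases before the start (Bmp4, Id2, Id3, Id4 and Smad6). Capitals mark GGCGCC, a GC-rich sequence known to be bound by BMP-activated SMADs, which reads the same on both strands. The Id2 stretch covers 250 to 162 bases before the start (chr12:25096254-25096342, minus strand), the part of the window outside annotated untranslated exons, and lies in the first intron of a longer annotated transcript of the gene. The Id4 stretch covers all 250 bases (chr13:48260866-48261115, plus strand) upstream of the annotated gene.
Id2: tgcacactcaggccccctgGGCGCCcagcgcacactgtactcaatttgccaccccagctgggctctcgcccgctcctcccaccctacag
Id4: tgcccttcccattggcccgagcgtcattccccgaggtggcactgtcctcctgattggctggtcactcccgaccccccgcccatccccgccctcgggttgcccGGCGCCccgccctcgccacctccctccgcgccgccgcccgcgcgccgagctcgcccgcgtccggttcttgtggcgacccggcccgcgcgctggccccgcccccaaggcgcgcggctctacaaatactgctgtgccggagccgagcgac
The motif begins 231 bases before the start in Id2 and 148 bases before it in Id4, and was not found in the windows of Id3, Smad6 and Bmp4. It occurs in 9.59% of all 32851 windows of that table. The shorter SMAD sequence GTCT, read on both strands (AGAC on the other), occurs in 82.9% of them. It was found in Bmp4, Id2, Id3 and Smad6 but not in Id4. All 250 bases of the Id3 window lie in annotated untranslated exons, so that window is not upstream of the gene. The GTCT matches of Id2 and Id3 also begin in such exons. Both genes thus hold GGCGCC in the window, whichever way they moved, and a match shows letters only, not binding.

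Smad6, on chromosome 9 (chr9:63953076-64022059, minus strand), showed no called change. In PGK it measured 10.6 and 4.11 CPM at day 0, 5.33 and 1.37 at day 4, 11.4 and 11.7 at day 10, 5.18 and 9.12 at days 19 to 23, and 5.74 and 3.49 at days 27 to 30. In E14 it measured 5.59 CPM in diff2 and no reads in diff3 at day 0, 3.09 CPM and no reads at day 4, and then 4.57 and 4.58 CPM, 7.69 and 8.03 CPM, and 7.45 and 5.66 CPM at the 3 late stages. Both libraries without reads are the shallow ones. The late change from day 0 was -0.75 in PGK (SE 0.73, edgeR adjusted p = 0.48) and 1.09 in E14 (SE 1.47, adjusted p = 0.659), and Smad6 was not called in any of the 17 comparisons. Without E14 diff2 at day 0, which leaves only the day 0 library with no Smad6 read, the late E14 difference passed (adjusted p = 0.0265, range 0.0265 to 0.925 over 12 alternatives). Without E14 diff3 at day 0 it was 0.18 (adjusted p = 0.925).

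Set side by side, the early step in PGK called 2 members higher (Bmp2 and Id2) and 1 lower (Id4), where 8.35% of the 15284 genes tested were higher and 6.44% lower. The median log2 change was -0.37 over the members and -0.01 over all genes. From day 4 to day 10, 2 members rose (Bmp2 and Id1) and none fell, against 1.05% and 0.465% of all genes, with medians of 1.90 and -0.01. Over the whole course 4 members were higher (Bmp2, Id1, Id2 and Id3) and 1 lower (Id4), against 13% and 12% of all genes, with medians of 1.73 and -0.06.

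In E14 with all libraries, day 4 called no member higher and 1 lower (Bmp7), against 5.16% and 4.4% of the 14501 genes tested. The members' median was -1.17, or -0.66 with Bmp2, which had no reads at day 4, put at its bound, and that of all genes 0.15. From day 4 to day 10, 1 member rose (Bmp2) and none fell, against 0.145% and 0.0414% of all genes, with medians of 2.06 and 0.09. Days 27 to 30 called 2 members higher than day 0 (Bmp2 and Id1) and none lower, against 8.73% and 4.99% of all genes, with medians of 1.11 and 0.19.

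**Figure D2:**
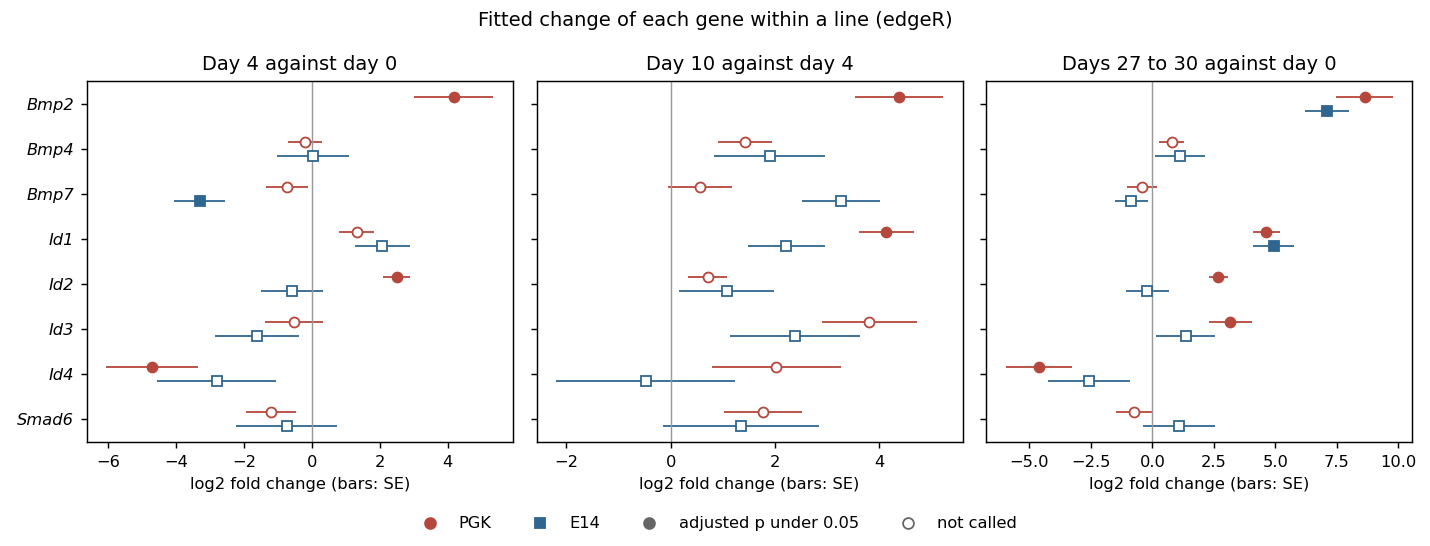
Points are log2 fold changes from edgeR (x axis) with bars of 1 SE for each of the 8 genes (y axis) in PGK and E14, filled where the adjusted p is under 0.05, and Bmp2 in E14 is left out of the first 2 panels because day 4 had no reads. Over the whole course 5 members are called in PGK and 2 in E14, where the bars of Id2, Id3 and Id4 are wider.

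The E14 result over the whole course changed when the diff3 library of day 0 was left out, which leaves 1 library at day 0 that is assumed to vary like the others. Then 5 members were called, and all 5 are those called in PGK: Bmp2, Id1, Id2 and Id3 higher and Id4 lower, where 8% of 15571 genes were higher and 5.77% lower. Id2 turned from -0.20 (SE 0.89, adjusted p = 0.907) to 2.45 (SE 0.66, adjusted p = 0.0335). Id3 went from 1.36 to 5.24 (SE 1.2, adjusted p = 0.0168) and Id4 from -2.58 to -3.55 (SE 0.95, adjusted p = 0.0338). Leaving out both shallow libraries gave the same 5 calls, with 2.46 for Id2 (adjusted p = 0.0408), 5.25 for Id3 (0.00932) and -3.53 for Id4 (0.0118). Over all 12 alternatives the adjusted p ran from 0.0335 to 0.969 for Id2, from 0.00932 to 0.763 for Id3 and from 0.0118 to 0.934 for Id4. Without the diff2 library of day 0 instead, Id2 was -1.11 (adjusted p = 0.141) and Id3 0.37 (adjusted p = 0.763), and Id4 turned as given above, so these 3 results depend on which day 0 library is kept.

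After day 10 no member was called in either line. Days 19 to 23 against day 10, and days 27 to 30 against days 19 to 23, called no gene at all with edgeR (0% of genes in each of the 4 comparisons), while 208 and 231 genes in PGK and 938 and 106 in E14 had an unadjusted p under 0.05. DESeq2 called 5, 4, 274 and 4 genes in the same order. Bmp2 was the member nearest to a call, at 2.72 from day 10 to days 19 to 23 in E14 (SE 0.66, adjusted p = 0.361), and it was called there by DESeq2 (0.00174) and without the low-count filter (0.0498), in a range of 0.00174 to 1 over 11 alternatives.

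No member was called between PGK and E14 at any stage, where edgeR called 0.509% of the 15732 genes tested at day 0, 0.165% at day 4, 0.0636% at day 10, 0.0636% at days 19 to 23 and 0.0572% at days 27 to 30. The member with the smallest unadjusted p was Bmp2 at day 4, at 2.29 ± 2.84 CPM in PGK, of which diff3 gave nearly all, and no reads in E14. That is at least 11.9-fold higher in PGK with 3 counts as the floor (adjusted p = 0.196, range 0.0175 to 0.853 over 10 alternatives). Leaving out E14 diff2 at day 0 makes the library standing apart the only E14 one of that day. Id2 then measured -3.65 between lines there. Id4 and Smad6 had no read in that library, so no fold is given for them. Many other genes moved in that fit too, so it shows nothing particular to the members. With all libraries Id2 measured -2.76 (SE 0.78, adjusted p = 0.139), and it passed with DESeq2 (0.00718) and without the low-count filter (0.0425), with a highest value of 1 over 10 alternatives. Without E14 diff3 at day 0 it was -0.08 (adjusted p = 1), so the Id2 difference rests on that library. No member's change was called as different between the lines, at day 4 (0.0763% of genes called) or at days 27 to 30 (0.0509%). At day 4 Bmp2 passed with DESeq2 (0.0367, range 0.0367 to 1). The Id2 difference depended on the E14 day 0 library kept. At day 4 it was 4.03 without diff2 and 0.46 without diff3. At days 27 to 30 it was 3.81 without diff2 and 0.24 without diff3. With 2 libraries a group and 1 of the E14 day 0 libraries apart from the rest, these tests can miss a sizeable difference.

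Compared per kilobase of annotated exons, the order of the members changed between the states. In PGK at day 0, Bmp7 (4.37 ± 2.30 CPM per kb) and Id4 (4.37 ± 0.41) led and Bmp2 was lowest (0.0360 ± 0.0137). At day 4, Id2 had the highest mean in both lines, at 7.02 ± 1.38 CPM per kb in PGK and 5.48 ± 0.869 in E14, where Id1 (5.41 ± 4.42) did not differ from it beyond their spread. From day 10 on, Id1 and Id3 held the top 2 places in all 6 late groups, with Bmp2 next in 5 of them. At days 27 to 30 Id3 measured 26.1 ± 0.468 CPM per kb and Id1 24.2 ± 5.28 in PGK, which do not differ beyond their spread, and Bmp2 measured 14.9 ± 0.237. In E14 at the same stage Id1 measured 36.3 ± 13.7, Id3 26.1 ± 3.62 and Bmp2 13.1 ± 2.21 CPM per kb. Id4 was lowest in all 6 late groups.

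Bmp2, Id1 and the sum of the endoderm markers were each higher in every late library than in any early one. Id3 broke this pattern. It measured 37.6 CPM in E14 diff3 at day 0, where the markers summed to 2.07 CPM. In E14 diff2 at day 10 it measured 18.4 CPM, where they summed to 58.4 CPM. Whether Id1 or Id3 followed the marker sum apart from stage was not tested. The 5 markers Sox17, Gata6, Gata4, Foxa2 and Cxcr4 summed to 2.07 to 47.7 CPM in the 8 early libraries and to 58.4 to 764.6 CPM in the 12 late ones, and none of the 5 was without reads in either set. E14 diff3 at days 19 to 23 had the highest sum (764.6 CPM) and also the highest Bmp2, Id1, Id2 and Id3 of any library. Within the early set PGK diff3 at day 4 had the highest sum (47.7 CPM) and the highest Bmp2 (4.29 CPM), and 5 primitive streak and mesoderm markers summed to 761.2 CPM there, against 8.52 to 89.1 CPM in the other early libraries. The 6 fibroblast and feeder markers summed to 0 to 23.05 CPM in the early libraries and to 15.4 to 247.2 CPM in the late ones. In bulk RNA, more cells of a type and more RNA per cell cannot be told apart, and the part of such cells in these results was not tested.

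**Figure D3:**
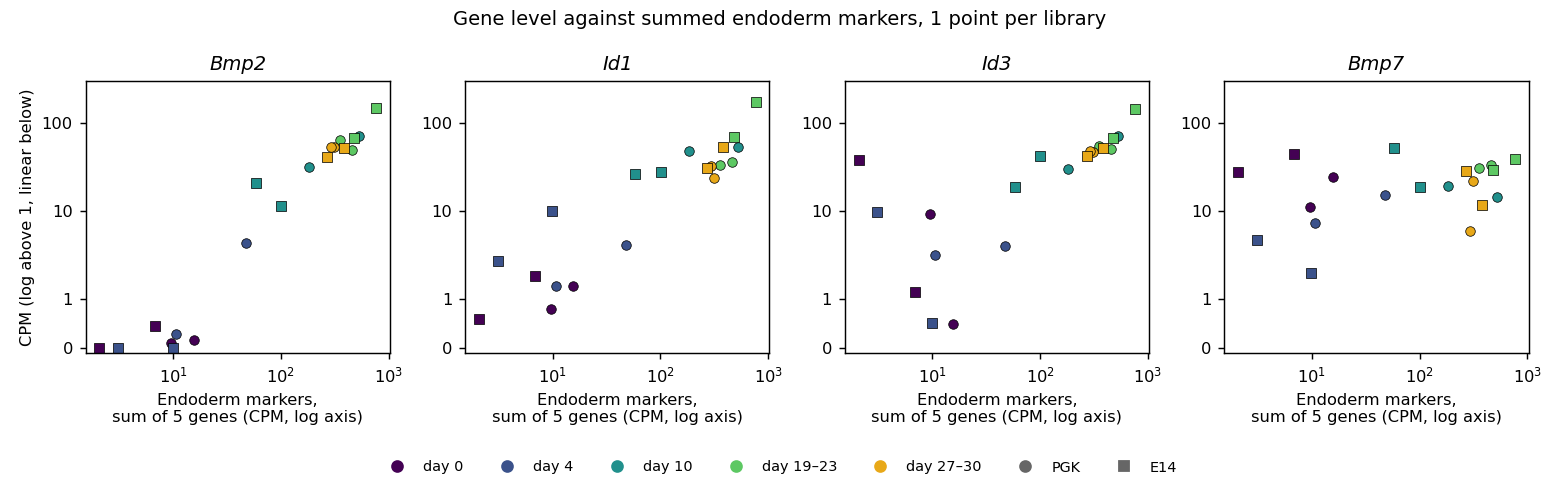
Each point is 1 of 20 libraries, with the summed CPM of 5 endoderm markers on a log x axis and the CPM of the gene named above each panel on the y axis (log above 1, linear below), coloured by day and shaped by line. Bmp2 lies between 0 and 4.29 CPM where the markers sum to 47.7 CPM or less and between 11.4 and 146.8 CPM where they sum to 58.4 CPM or more, while Bmp7 spans 1.98 to 43.4 CPM in the first set and 5.94 to 51.3 CPM in the second.

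Across the 20 libraries, 2 of those endoderm markers were the genes whose log2 CPM tracked Bmp2 most closely among 14543 genes, Cxcr4 (Pearson r = 0.987) and Sox17 (0.978), and within the 12 late libraries alone r was 0.924 and 0.917. For Id1 the closest were Klhl4 (0.967) and Spink3 (0.965), for Id3 Bmper (0.942) and Sema6d (0.911), and for Id2 Zmynd11 and Arhgap27 (both 0.9). Bmper, which encodes a secreted BMP-binding protein, kept an r of 0.923 with Id3 in the late libraries, whereas the 2 genes nearest Id2 stood at 0.152 and 0.315 there. For Bmp4 they were Limch1 (0.862) and Mx2 (0.838), for Bmp7 Plod1 (0.839) and Plgrkt (0.833), for Id4 Fam78a (0.89) and Ero1lb (0.881), and for Smad6 Rilpl2 (0.941) and Carns1 (0.936), which stood at 0.274 and 0.032 in the late libraries. Among the members, Bmp2 correlated with Id1 at 0.91 over 20 libraries and 0.684 over the late 12, and with Id3 at 0.774 and 0.782. These are descriptions over libraries that share stage, line and depth, and the marker lists were chosen with earlier results of these data known.

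The wider pathway was read from 65 other genes in 7 roles. Over the whole course 14 of the 57 tested in PGK rose and 2 fell, against 13% and 12% of all genes, with a median of 1.24 (1.08 with genes without reads in a group at their bound) against -0.06 for all genes. In E14, 11 of 56 rose and 4 fell, against 8.73% and 4.99% of all genes, with a median of 1.48 (1.33) against 0.19. At day 4 the counts were 7 up and 1 down in PGK, against 8.35% and 6.44% of all genes, and 5 up and 2 down in E14, against 5.16% and 4.4%. From day 4 to day 10 they were 3 up and 1 down in PGK, against 1.05% and 0.465%, and none in E14, against 0.145% and 0.0414%. In E14, 13 of 56 had an unadjusted p under 0.05, as did 1250 of all 14501 genes. DESeq2 called 5 of the list there and 515 of all genes. Without the diff3 library of day 0, 13 of the 15 E14 calls over the whole course remained. Bambi (1.88) and Bmpr1a (1.40) lost theirs, and Acvr2a, Bmper, Chrd and Runx1 gained one. Acvr2a and Chrd are named for this change alone. At day 4, 5 of the 7 remained, without Bmpr1a and Tcf12. The counts in both directions together also moved with other single libraries, where a group is left with 1 library. Over the whole course fewer were called in E14 without either library of days 27 to 30. At day 4 fewer were called in E14 without either day 4 library, and in PGK without diff3 of day 4. More were called at day 4 in E14 without diff2 of day 0. The count over all genes moved the same way when diff3 of days 27 to 30 or of day 4, or E14 diff2 of day 0, was left out. Such moves were therefore not particular to this list. No gene of this list was called as changing differently between the lines over the whole course, where edgeR called 0.0509% of all genes tested. The E14 calls named below come from the fit with all libraries.

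Among the other ligands, Bmp5 was the only one called at days 27 to 30 in either line. It had no reads in any of the 8 early libraries and averaged 5.76 CPM in PGK and 6.09 CPM in E14 at days 27 to 30, at least 64.8-fold and 34.1-fold higher than day 0 (edgeR adjusted p = 0.00211 and 0.031). The 2 libraries of E14 differed widely there, at 1.11 and 11.1 CPM. Of the receptors, the type I receptor Bmpr1a was abundant throughout and rose in E14 from 84.6 ± 3.595 to 238.6 ± 16.5 CPM (adjusted p = 0.0163), while in PGK it measured 76.2 and 135.5 CPM at day 0 and 221.8 and 178.2 CPM at the end (adjusted p = 0.06). Bmpr1b rose in both lines, by 5.77 in PGK (SE 0.99, adjusted p = 0.0023, from 3 reads over both day 0 libraries) and from no reads to at least 22.5-fold higher in E14 (adjusted p = 0.0226). Eng, which encodes the co-receptor endoglin, fell by 5.58 in PGK (SE 0.58, adjusted p = 0.000149) and fell by 6.84 in E14 (SE 1.14, adjusted p = 0.00407). The type II receptor Bmpr2 (0.63 in PGK and 1.47 in E14, adjusted p = 0.19 and 0.144) and the type I receptor Acvr1 (0.49 and 1.22, adjusted p = 0.286 and 0.47) were not called. Bmpr1b was already called higher at day 4, by 4.94 in PGK (SE 0.97, adjusted p = 0.00717) and at least 36.7-fold in E14 (adjusted p = 0.0209). The co-receptor gene Rgma was called lower at day 4 in E14 (-4.25, SE 0.81, adjusted p = 0.00956) and not in PGK (-0.87, adjusted p = 0.381).

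Of the SMADs and cofactors, Smad5 rose in both lines, by 1.58 in PGK (SE 0.39, edgeR adjusted p = 0.0151) and 1.34 in E14 (SE 0.37, adjusted p = 0.038). Smad1 measured 27.5 ± 11.7 CPM at day 0 and 68.8 ± 5.02 CPM at days 27 to 30 in PGK and was not called (adjusted p = 0.0645). Smad4, the partner of all receptor-activated SMADs, rose in PGK by 0.67 (SE 0.21, adjusted p = 0.0407) and measured 0.68 in E14 (SE 0.3, adjusted p = 0.162). Smad9 fell in E14 from 4.18 and 10.1 CPM to 0 and 0.122 CPM (adjusted p = 0.0281), and its log2 difference in PGK was -5.31 (SE 1.8, adjusted p = 0.0552). Zfp423, a zinc finger protein that binds BMP-activated SMADs, rose already at day 4 in both lines (4.21 in PGK and 5.52 in E14, adjusted p = 0.00111 and 0.00873), as Id2 did in PGK. Runx1, which encodes a DNA-binding partner of SMADs, rose by 5.63 in PGK (SE 0.55, adjusted p = 0.000109) and measured 3.47 in E14 (SE 1.05, adjusted p = 0.0522). Without E14 diff3 at day 0 the E14 value of Runx1 was 6.55.

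The extracellular antagonists held the largest change of the list. Cer1, a secreted inhibitor of Nodal, BMP and Wnt ligands that anterior endoderm makes, went from at most 0.296 CPM at day 0, 1 to 3 reads a library, to 315.6 to 591.6 CPM at days 27 to 30, a rise of 12.22 in PGK (SE 1.57, edgeR adjusted p = 0.000466) and 10.88 in E14 (SE 1.29, adjusted p = 0.000687). In PGK, Fstl1 (3.59) and Bmper (4.03) also rose, where E14 measured 1.09 and 0.35 (adjusted p = 0.128 and 0.887). Without E14 diff3 at day 0 the E14 values were 1.58 for Fstl1 and 5.34 for Bmper, so the low Bmper value rests on that library. In E14 the BMP antagonist noggin (Nog) rose by 5.94 (SE 1.41, adjusted p = 0.0202), where PGK measured 2.73 (SE 1.19, adjusted p = 0.121). No antagonist was called lower in either line. Cer1 (7.02, adjusted p = 0.0146), Fst (3.87, adjusted p = 0.00578) and Fstl1 (1.39, adjusted p = 0.028) were already called higher at day 4 in PGK. No antagonist was called at day 4 in E14. Over the whole course Fst was not called in PGK (1.37, adjusted p = 0.158).

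Of the inhibitors inside the cell and in its membrane, Bambi, a pseudoreceptor and a known BMP target, rose by 1.96 in PGK (SE 0.34, edgeR adjusted p = 0.00247) and 2.26 in E14 (SE 0.54, adjusted p = 0.021), while Smad6 was not called. Its highest library was again E14 diff3 at days 19 to 23, at 133.7 CPM. Smad7, the other inhibitory SMAD, fell in E14 by 1.87 (SE 0.39, adjusted p = 0.012) from 97.0 and 157.3 CPM, and in PGK measured 24.8 and 66.9 CPM at the end against 42.1 and 67.8 CPM at day 0. Skil, which encodes the SMAD co-repressor SnoN, rose already at day 4 (1.83 in PGK and 2.52 in E14, adjusted p = 0.000687 and 0.012).

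The other targets did not move as one. Gata2 fell by 9.58 in PGK (SE 1.6, edgeR adjusted p = 0.00198) and fell by 7.95 in E14 (SE 1.58, adjusted p = 0.00933), with day 0 levels of 183.1, 16.5, 11.6 and 38.5 CPM in the 4 libraries. Hey1 rose in PGK by 2.68 (SE 0.53, adjusted p = 0.00525) and measured 3.45 in E14 (SE 1.2, adjusted p = 0.0822). Gata3 rose in E14 by 6.22 (SE 1.36, adjusted p = 0.0147) and measured 0.77 in PGK (SE 0.76, adjusted p = 0.488). The other 8 of the 11 tested were not called in either line over the whole course. Of the 3 E proteins, the partners that Id proteins bind, Tcf12 rose in both lines (0.92 in PGK and 1.75 in E14, adjusted p = 0.0234 and 0.0106) and Tcf3 and Tcf4 were not called.

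**Figure D4:**
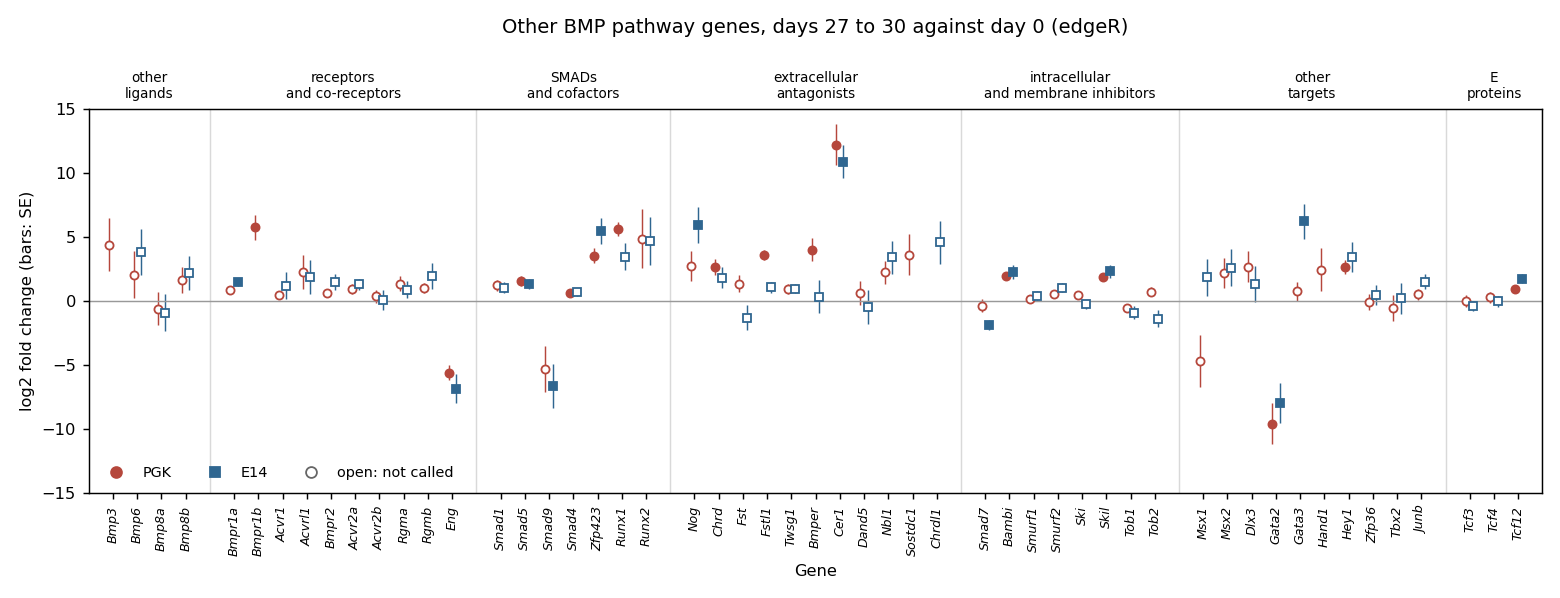
Log2 fold changes (y axis, bars of 1 SE) of days 27 to 30 against day 0 are shown for the other pathway genes on the x axis, ordered by role, filled where the edgeR adjusted p is under 0.05, without genes that had no reads in a group. Cer1 stands highest at 12.22 in PGK and 10.88 in E14, Gata2 lowest at -9.58 and -7.95, and Eng is lower in both lines.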

How the data were processed

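Stranded mRNA of 20 libraries was sequenced, per the labels. The authors deposited raw counts per gene, a normalized signal and variance-stabilized log2 values, per the file headers. CASAVA 1.8.2, Cuffdiff, DESeq2 and GRCm38 (mm10) are named in the submitters' processing notes without roles. Which aligner and gene annotation were used, and whether counting took strand into account, is not given in the sources used here. The deposited signal was checked to equal each count over a single size factor of its library. Of the 23361 entries, 27 bear names turned into dates and were not used by name.

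CPM was computed from the raw counts. Differences were tested with edgeR 4.0.16 (R 4.3.3) on the counts, with TMM size factors, filterByExpr (minimum count 10), robust quasi-likelihood tests, Benjamini-Hochberg adjustment over all genes tested and a threshold of 0.05. Steps within a line used its 10 libraries, and comparisons between lines all 20. In all 17 comparisons were made. The day 4 tests were run on simulated counts with a single dispersion for all genes and known rises at day 4. No simulated library stood apart in content, so that check does not cover the E14 day 0 case. Where a group had no reads, a fold is a bound, computed from a floor of 3 counts summed over the group, which covers counting error only.

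Alternatives were RLE size factors, no filter, DESeq2 1.42.0, limma 3.58.1 on the deposited log2 values, a fit of 20 libraries, a term for the library code, a replicate block, and leaving out libraries. Libraries of a line with the same experiment name are paired by the labels. Their deviations from the group means correlated at -0.212 to 0.53 across genes. The highest values, 0.413 to 0.530, were those between days 0, 4 and 10 in PGK. At these days the diff2 libraries carry the library code and the diff3 libraries do not, so code and experiment cannot be told apart there.

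All 8 genes are always reported. By name, the text gives at most 3 other pathway genes of each role per comparison, those with the smallest adjusted p at day 4 or at days 27 to 30 against day 0, core receptors and SMADs, and for each member the 2 genes with the highest Pearson r of log2 CPM (prior count 2). The members and lists were chosen with earlier results of these data known.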

Additional observations from a re-analysis of the deposited data

How the results depend on the processing

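Of 188 recomputed counts of called members, 161 stayed within 1.5 times the main count and 27 did not. Many of the 188 come from comparisons without a called member, where a count that stayed at 0 was scored as unchanged. The 161 therefore does not measure how stable the calls were. With the experiment as a replicate block (paired libraries), the same members were called as without it in the within-line comparisons: 3 in PGK at day 4 and 5 at days 27 to 30. Without the low-count filter, 1 member was called in PGK at day 10 against day 4, 2 in E14 at that step, 1 in E14 at days 19 to 23 against day 10 and 1 between lines at day 0. DESeq2 called 2 in E14 at day 4, 2 at day 10, 1 at days 19 to 23 against day 10, 1 between lines at day 0, 1 at day 4, and 1 in the difference of the day 4 change. It also called more of all genes than edgeR: 515 against 27 in E14 at day 10 against day 4. The numbers were 274 against 0 in E14 at days 19 to 23 against day 10, and 235 against 26 between lines at day 4. The fit of 20 libraries called 3 in PGK over the whole course and 2 in E14 at day 10 against day 4. For this fit and the one without the filter, no share of all genes is set beside the counts. They therefore show no trait of the members. Without both shallow libraries E14 had 5 over the whole course, and Id2 turned to 2.46. Leaving out 1 library at a time, which leaves a group with 1 library, changed the number of members called in both lines at day 4 and at day 10. It did so too in E14 over the whole course, between lines at days 0 and 4, and in the differences of the day 4 and the late change. Leaving out 1 library moved Id2 in E14 over the whole course from -1.11 (without diff2 at day 0) to 2.45 (without diff3 at day 0), and Id3 in PGK at day 4 from -1.41 (without diff2 at day 0) to 2.83 (without diff3 at day 0). For the other changes the cause was not tested. Called genes over the whole course ranged from 2208 to 5117 in PGK (main 3833) and from 645 to 4941 in E14 (main 1990). On TMM library sizes 78 of 80 group levels moved by less than 1 SD, and in the deposited normalized signal 75 of 80. Counts of 3 or fewer, as for Bmp2 at day 0 in PGK, set the precision of the largest folds.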
